A study of Mus musculus with 12 samples.

Results

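The immediate early genes are a set of 10 transcription factors and signalling regulators that cells switch on within minutes of a stimulus: Fos, Fosb, Jun, Junb, Egr1, Ier2, Ier3, Atf3, Dusp1 and Klf6. Their transcripts were followed in mouse liver with and without YAP in hepatocytes, before and after the mitogen TCPOBOP. The members were found as all probe sets (groups of short probes that read 1 transcript) which the array annotation gives to one of these symbols alone, and this gave 15 of the 34945 probe sets with a single gene, among 45101 on the array. Klf6 had 5 of the 15, Jun had 2 and the other genes 1 each. A filter kept probe sets above the median signal of their own array on at least 2 arrays, and 12 of the 15 passed it, for 9 of the 10 genes; Junb did not pass.

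RNA of whole liver was hybridized to 12 single-colour Affymetrix arrays. All mice were females of 8 to 12 weeks with both Yap1 alleles floxed (YAPfl/fl). The knockout (KO) mice were injected with the virus AAV8.TBG.PI.Cre.rBG, in which the hepatocyte promoter TBG drives Cre, so that liver cells other than hepatocytes keep Yap1. The wild-type (WT) controls got AAV8.TBG.PI.eGFP.WPRE.bGH8, which makes GFP in its place. At 10 days after the virus, mice of the later groups received 3 mg/kg TCPOBOP in corn oil by gavage, and livers were taken 1 or 2 days later; the day 0 mice had the virus only. The KO arrays are 2 at day 0, 1 pool at day 1 and 3 at day 2, and the WT arrays are likewise 2, 1 pool and 3. No mice without TCPOBOP were sampled after day 0, so that drug, gavage and elapsed time cannot be told apart. The titles number the replicates without saying that they are separate animals, and p-values measure the spread between these samples.

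Immediate early genes need no new protein for their induction, since the factors that switch them on, such as CREB and serum response factor, are already present in the resting cell. Products of Fos, Fosb, Jun, Junb and Atf3 belong to the AP-1 and ATF family of leucine zipper proteins, which bind DNA as pairs. Egr1 and Klf6 encode zinc finger transcription factors, Ier2 a nuclear regulator of transcription, Ier3 a regulator of survival signalling, and Dusp1 a phosphatase that inactivates MAP kinases. In liver they are known for their burst after partial hepatectomy, where c-Jun supports the entry of hepatocytes into the cell cycle, and also for their response to handling and tissue stress. TCPOBOP activates the nuclear receptor CAR and makes hepatocytes divide without tissue loss, and YAP is a transcriptional co-activator of the Hippo growth pathway that can work together with AP-1 factors.

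The promoters of Jun and Atf3, the members whose tests separated groups and that have an entry in the RefSeq promoter table, and of Fos and Dusp1, their classical companions, are shown because they carry the letters through which such genes are known to be switched on. Each runs from 250 bases before to 50 after the RefSeq start (GRCm38.p6), 5′ to 3′ on the gene's own strand. The windows are chr4:95052173-95052472 (minus strand) for Jun, chr1:191183284-191183583 (minus) for Atf3, chr12:85473640-85473939 (plus) for Fos and chr17:26508423-26508722 (minus) for Dusp1. Capitals mark every match of the motifs named in the next paragraph.
Jun: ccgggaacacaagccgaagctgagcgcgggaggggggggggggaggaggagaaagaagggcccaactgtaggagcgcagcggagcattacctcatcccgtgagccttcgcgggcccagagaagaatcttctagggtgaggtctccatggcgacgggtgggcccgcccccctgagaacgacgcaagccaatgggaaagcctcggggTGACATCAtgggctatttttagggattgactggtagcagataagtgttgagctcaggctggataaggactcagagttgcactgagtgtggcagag
Atf3: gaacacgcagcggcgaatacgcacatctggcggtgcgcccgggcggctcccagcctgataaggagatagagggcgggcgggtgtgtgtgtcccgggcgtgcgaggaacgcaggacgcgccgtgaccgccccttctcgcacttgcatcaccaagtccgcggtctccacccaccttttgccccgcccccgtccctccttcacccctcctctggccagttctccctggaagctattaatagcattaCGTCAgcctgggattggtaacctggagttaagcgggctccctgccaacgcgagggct
Fos: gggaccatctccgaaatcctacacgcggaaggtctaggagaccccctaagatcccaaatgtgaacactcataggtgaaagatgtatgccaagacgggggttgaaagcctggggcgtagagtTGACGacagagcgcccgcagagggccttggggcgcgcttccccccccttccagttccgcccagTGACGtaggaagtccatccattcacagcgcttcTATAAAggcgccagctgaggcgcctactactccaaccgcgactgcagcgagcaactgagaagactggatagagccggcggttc
Dusp1: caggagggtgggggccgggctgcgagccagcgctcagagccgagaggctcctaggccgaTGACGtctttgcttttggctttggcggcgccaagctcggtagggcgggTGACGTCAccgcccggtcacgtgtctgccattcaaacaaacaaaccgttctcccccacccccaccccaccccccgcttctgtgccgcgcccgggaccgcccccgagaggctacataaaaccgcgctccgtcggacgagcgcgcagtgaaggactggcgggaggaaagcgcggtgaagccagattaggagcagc

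Of the 10 members, 8 matched the promoter table by symbol, and Egr1 and Ier2 are named only. Both strands were searched for the CREB and ATF motif CRE (TGACGTCA), its shorter core (CGTCA, which lies within the full CRE), the AP-1 site (TGANTCA), the site bound by Jun and ATF proteins in the Jun promoter (TGACATCA), the EGR site (GCGTGGGCG), the TATA box (TATAAA) and the CArG box of serum response factor. The TGACATCA letters were added to the search after the Jun window had been read. The CRE core was in 5 of the 8 member windows, those of Fos, Fosb, Junb, Atf3 and Dusp1, against 20.8% of all 32851 promoters. A full CRE was in the Dusp1 window alone among the 8, against 1.79% of promoters. TGACATCA was in the Jun window, 45 bases before the start, and in that of Klf6, against 3.62% of promoters. TATAAA was found in 2 of the 8 (Fos and Junb) and in 13.6% of promoters. The Fos match begins 33 bases before the start, whereas the Junb match begins at the RefSeq start and not upstream of it. CArG, AP-1 and EGR letters were in 0 of the 8 windows, against 1.63%, 7.81% and 0.612% of promoters. Sequence more than 250 bases before the start was not searched, so that sites further upstream would be missed. These matches describe letters in a window and are not evidence that a factor binds there.

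Signals are MAS5 intensities that the authors deposited, already scaled to a common mean on each array, and differences are given as log2(signal + 16). Array medians lay between 231.6 and 277.0 units, and precision is set by how few arrays there are. By its brighter probe set Yap1 had 449.6 to 796.7 units on the KO arrays and 999.2 to 1306.3 on the WT arrays, without overlap. Hepatocyte markers were above the array median on all arrays. The highest signals were lower on the KO day 2 arrays than on the WT day 2 arrays, at 48217.1 to 67456.6 against 103215.8 to 116917.6. Groups were compared with limma, in a single model of the 6 groups over all 12 arrays and 14102 genes, and a gene was called at a Benjamini-Hochberg adjusted p under 0.05. In what follows ± is the limma standard error, n is 2 arrays at day 0 and 3 at day 2 in each genotype, and levels of different probe sets are not compared. In whole liver, fewer cells of a type and less RNA per cell cannot be told apart.

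**Figure D1:**
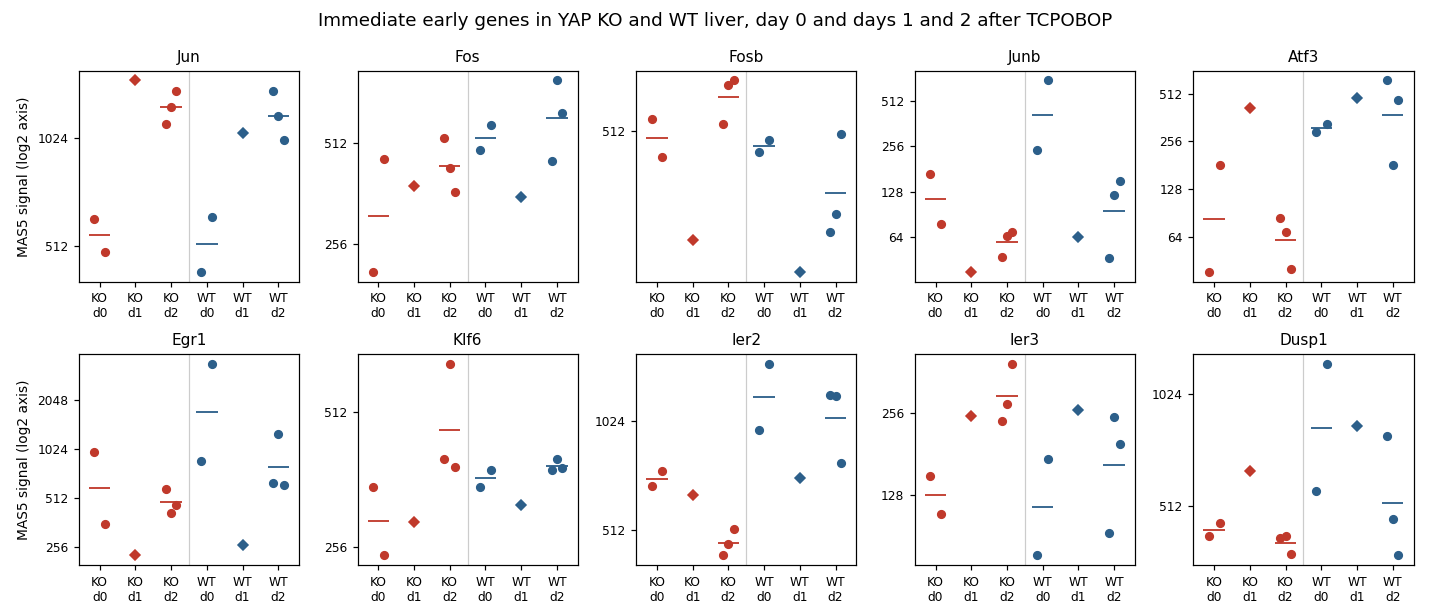
Signal of the 10 immediate early genes (MAS5 units, log2 axis, a separate scale in each panel) on the 6 KO arrays (red, left) and the 6 WT arrays (blue, right) at days 0, 1 and 2. Circles are arrays, diamonds the day 1 pools and bars the group means of the log2 values; Jun stood higher at day 2 than at day 0 in both genotypes, and Ier2 and Atf3 lay lower in KO than in WT on each day.

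Jun rose in livers of both genotypes after TCPOBOP and was the only one of the 9 members tested to pass the test over time. It encodes c-Jun, the AP-1 subunit best known from liver regeneration. Jun (1448694_at) had 608.6 and 493.8 units in KO livers at day 0, 1485.4 in the KO pool in the day 1 pool, and 1118.7, 1253.5 and 1390.2 at day 2. WT livers had 433.0 and 619.3 units at day 0, 1057.9 in the day 1 pool, and 1387.3, 1180.4 and 1011.7 at day 2. In each genotype every array after TCPOBOP lay above both day 0 arrays, and the genotypes overlapped on days 0 and 2.

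The day 2 level of Jun was 2.24-fold the day 0 level in KO (log2 1.16 ± 0.20, limma adjusted p 0.00341) and 2.25-fold in WT (1.17 ± 0.20, adjusted p 0.00239). Both calls were kept without any 1 array, with changes of 1.02 to 1.31 in KO and 0.92 to 1.42 in WT. The change in KO minus the change in WT was 0.00 ± 0.28 (limma adjusted p 0.997). That error is a standard error and not a limit, so a larger difference of either sign remains possible. Over the alternatives other than leaving out single arrays, the value ran from -0.6 to 0.00. KO minus WT was 0.08 ± 0.22 at day 0 (adjusted p 0.968) and 0.08 ± 0.18 at day 2 (adjusted p 0.805), and the day 2 value was -0.10 with arrays centred on their medians and -0.45 by the mean of both probe sets.

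The dimmer Jun probe set (1417409_at) moved further in WT than in KO, though the difference between the changes did not pass the test. It read 80.9 and 77.0 units in KO at day 0, 782.9 in the day 1 pool, and 197.7, 349.4 and 280.8 at day 2. In WT it read 25.9 and 138.8 at day 0, 601.5 in the day 1 pool, and 494.4, 492.8 and 653.1 at day 2. All day 2 arrays were above all day 0 arrays in both genotypes, and all KO day 2 arrays were below all WT day 2 arrays. Tested over all 23038 kept probe sets, of which 7.27% were called over time in KO and 11.3% in WT, its change was 1.59 ± 0.49 in KO (limma adjusted p 0.0786, not called) and 2.79 ± 0.49 in WT (adjusted p 0.00338). KO minus WT at day 2 was -0.97 ± 0.44 (unadjusted p 0.0487, limma adjusted p 0.186, with 7.86% of probe sets called), and the change in KO minus that in WT was -1.21 ± 0.70 (adjusted p 0.359, with 2.57% called). The 2 probe sets thus gave different KO minus WT values at day 2, with 0.08 for the brighter and -0.97 for the dimmer.

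**Figure D2:**
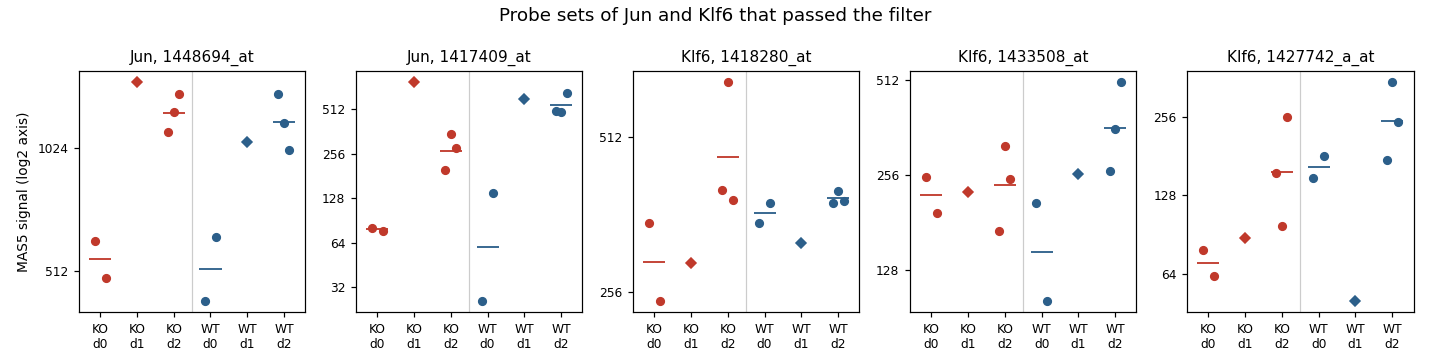
Signal (MAS5 units, log2 axis, a separate scale in each panel) of the 2 Jun and 3 Klf6 probe sets that passed the filter, on the 6 KO arrays (red, left) and 6 WT arrays (blue, right). Circles are arrays, diamonds day 1 pools and bars group means of log2 values; both Jun probe sets stood higher at day 2 than at day 0, with 197.7 to 349.4 units in KO and 492.8 to 653.1 in WT at day 2 by the dimmer one.

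Over time, 1 of the 9 members was called higher in KO (Jun) and 0 lower, against 4.2% and 4.49% of all genes tested, 8.69% either way. In WT the counts were again 1 (Jun) and 0, against 7.26% and 5.38% of all genes, 12.6% either way. The median change of the 9 members from day 0 to day 2 was 0.24 in KO and 0.09 in WT, beside medians over all genes of 0.05 in KO and -0.11 in WT. Members whose day 2 arrays did not overlap their day 0 arrays numbered 5 of 9 in KO (Jun, Klf6 and Ier3 higher, Ier2 and Dusp1 lower) and 1 of 9 in WT (Jun), against 40.4% and 45.1% of all genes. For the difference between the KO and the WT change, limma called 0 of 9, against 3.15% of all genes called, 1.08% higher and 2.06% lower. At an unadjusted p under 0.05 there were 0 of 9, against 21% of all genes, 11.4% higher and 9.61% lower. No other tool was run on that difference.

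Fos and Fosb encode the partners with which Jun proteins form AP-1, and neither passed a test. Fos had 212.0 and 458.2 units in KO at day 0, 380.8 in the day 1 pool, and 526.5, 430.3 and 366.1 at day 2. WT had 485.7 and 576.9 at day 0, 354.5 in the day 1 pool, and 450.4, 781.7 and 626.4 at day 2. Both KO arrays at day 0 lay below both WT arrays, and at day 2 the genotypes overlapped. Fos differed over time by 0.46 ± 0.33 in KO (limma adjusted p 0.452) and 0.19 ± 0.33 in WT (adjusted p 0.763), and KO minus WT was -0.73 ± 0.36 at day 0 (adjusted p 0.641) and -0.46 ± 0.29 at day 2 (adjusted p 0.329). Without KO day 0 replicate 1, the lowest array, the KO change was -0.07.

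Fosb ran the other way between the genotypes at day 2. It had 536.2 and 459.8 units in KO at day 0, 329.6 in the day 1 pool, and 525.3, 614.8 and 627.0 at day 2, against 470.2 and 493.6, then 289.4, then 340.0, 366.5 and 504.2 in WT. Each day 1 pool was the lowest array of its genotype, and every KO day 2 array was above every WT day 2 array. The day 2 difference, 0.54 ± 0.20 or 1.46-fold higher in KO, had an unadjusted p of 0.0209 and did not pass adjustment over all genes (limma adjusted p 0.11). Its changes over time were 0.24 ± 0.23 in KO and -0.27 ± 0.23 in WT, with limma adjusted p of 0.603 and 0.497.

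Junb, whose protein can restrain c-Jun as well as replace it, stood above the median of its own array on 1 array only and was left out of the tests above. It had 166.9 and 77.7 units in KO at day 0, 37.6 in the day 1 pool, and 47.3, 65.2 and 69.1 at day 2. WT had 242.5 and 696.2 at day 0, 64.3 in the day 1 pool, and 46.5, 122.0 and 150.9 at day 2. All 4 arrays after TCPOBOP were below both day 0 arrays in each genotype, most of them near the dim end of the scale. In a fit without the filter the change from day 0 to day 2 was -0.79 ± 0.59 in KO (limma adjusted p 0.536) and -1.93 ± 0.59 in WT (adjusted p 0.0723). No fold is given where an array of the lower group is under 64 units, since the pseudocount of 16 then sets much of the ratio.

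Atf3 was called lower in KO livers than in WT livers at day 2. It encodes a stress-induced member of the ATF family that mostly represses. Atf3 had 38.3 and 181.1 units in KO at day 0, 415.7 in the day 1 pool, and 84.1, 68.2 and 40.3 at day 2. WT livers had 291.9 and 328.6 at day 0, 481.0 in the day 1 pool, and 620.8, 181.6 and 463.9 at day 2. The KO arrays were below the WT arrays on each day, and the KO day 2 mean was 64.2 ± 22.2 units against 422.1 ± 222.6 in WT (SD, n = 3 each).

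Between the genotypes at day 2 Atf3 differed by -2.33 ± 0.56 (KO minus WT, limma adjusted p 0.0273), and no fold is given because of the dim KO arrays. The call was lost when any 1 of 5 day 2 arrays was left out: the value was -2.51, -2.39 and -2.10 without KO replicates 1, 2 and 3 (adjusted p 0.0519, 0.0743 and 0.0895), and -1.98 and -2.19 without WT replicates 1 and 3 (0.0909 and 0.088). It was kept without WT replicate 2 (-2.83, adjusted p 0.0215). At day 0 KO minus WT was -1.65 ± 0.69, with an unadjusted p of 0.034 and a limma adjusted p of 0.568, and it was -0.72 without KO day 0 replicate 1 and -2.58 without KO day 0 replicate 2. Over time Atf3 differed by -0.41 ± 0.63 in KO and 0.27 ± 0.63 in WT (limma adjusted p 0.763 and 0.826), and the change in KO minus that in WT was -0.68 ± 0.89 (adjusted p 0.693).

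Ier2 also was called lower in KO livers at day 2, with less spread between arrays. It had 677.4 and 744.1 units in KO at day 0, 639.7 in the day 1 pool, and 433.7, 465.8 and 514.9 at day 2. WT livers had 968.4 and 1482.4 at day 0, 712.8 in the day 1 pool, and 1210.5, 1206.0 and 785.0 at day 2. All KO arrays lay below all WT arrays on each day, and the KO day 2 arrays were the 3 lowest of the 12. Means at day 2 were 471.5 ± 40.9 units in KO and 1067.2 ± 244.4 in WT (SD, n = 3 each), a 2.19-fold lower level in KO (-1.13 ± 0.21, limma adjusted p 0.00863). The call was kept without any 1 array, with values of -1.33 to -1.02.

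At day 0, KO minus WT was -0.74 ± 0.25 for Ier2, with an unadjusted p of 0.0126 that did not pass adjustment over all genes (limma adjusted p 0.44). It was -0.44 when WT replicate 2 was left out and -1.05 when WT replicate 1 was. From day 0 to day 2 Ier2 differed by -0.58 ± 0.23 in KO, lower on all arrays (adjusted p 0.156), and by -0.19 ± 0.23 in WT (adjusted p 0.639). The KO change minus the WT change was -0.39 ± 0.33 (limma adjusted p 0.518).

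At day 2, 2 of the 9 members were called lower in KO than in WT (Ier2 and Atf3) and 0 higher, against 5.23% and 3.99% of all genes, 9.22% either way. The median KO minus WT difference was -0.34 over the members and 0.09 over all genes. Groups did not overlap for 4 of 9 members (Ier2, Atf3 and Egr1 lower, Fosb higher), against 36.2% of all genes. At day 0 limma called 0 of 9, against 0.17% of all genes, 0.0638% higher and 0.106% lower. At an unadjusted p under 0.05 there were 4 (Ier2, Egr1, Dusp1 and Atf3, all lower in KO), against 8.16% of all genes, 3.71% higher and 4.45% lower. Without WT day 0 replicate 2 these day 0 values were -0.44 for Ier2, -0.54 for Egr1, -0.33 for Dusp1 and -1.57 for Atf3. The median day 0 difference with all arrays was -0.73 over the members and -0.03 over all genes. Day 0 arrays did not overlap for 4 of 9 members (Ier2, Fos, Dusp1 and Atf3, all lower in KO), against 35.6% of all genes. Ier2 and Atf3 were the 2 members with KO below WT on every day, a pattern of 0.95% of all genes, and 0 members had KO above WT on every day, against 1.13%. At day 1 that order rests on 1 pool a genotype. The pools differed by -0.15 for Ier2 and -0.20 for Atf3, less than their within-group SDs of 0.28 and 0.78 log2 units.

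**Figure D3:**
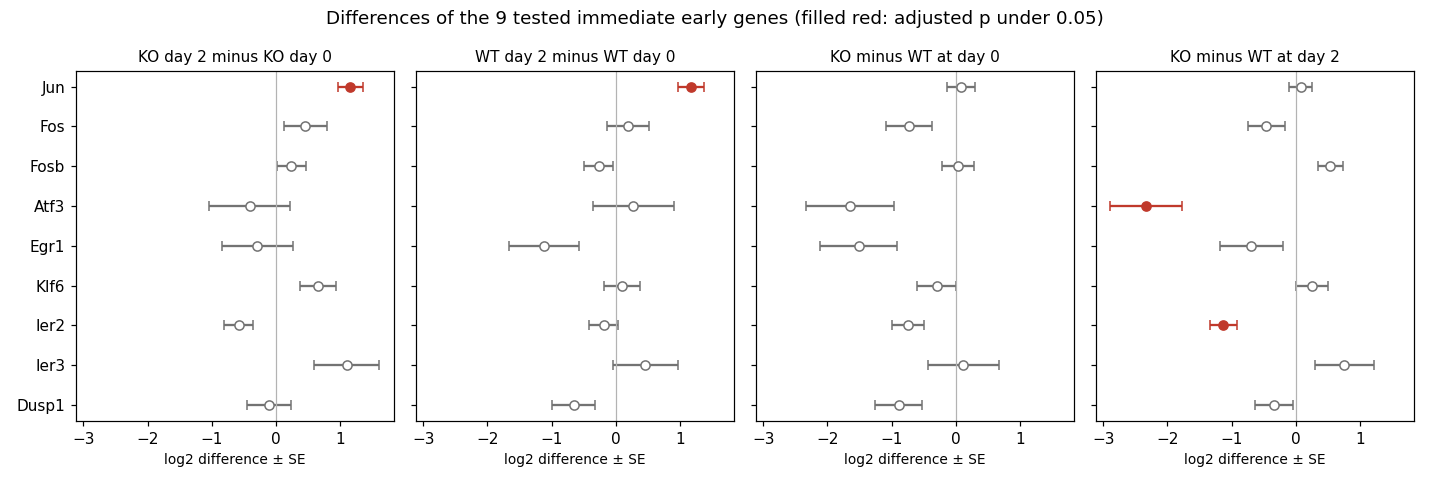
Log2 differences (points) with limma standard errors (bars) of the 9 tested immediate early genes, on the x axis, for KO and WT over time and for KO minus WT at days 0 and 2. Filled red points passed an adjusted p of 0.05: Jun over time in both genotypes (1.16 and 1.17), and Atf3 (-2.33) and Ier2 (-1.13) between the genotypes at day 2.

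Other features of the KO day 2 livers moved beside Ier2 and Atf3. Hspa1b, a heat shock chaperone that marks protein stress, had 4186.6, 6519.4 and 6112.4 units in KO and 525.1, 534.1 and 980.7 in WT at day 2. That is 8.28-fold higher in KO (3.05 ± 0.27, limma adjusted p 0.000459), and its probes may also read the near-identical Hspa1a. In the day 1 pools Hspa1b was high in both genotypes, with 5448.3 units in KO and 4846.0 in WT. Summed signal of the hepatocyte markers was 179273.1 to 228340.5 units in KO and 317951.8 to 361613.4 in WT at day 2, with 3 of 6 called lower in KO. Alb, Ttr and Apoa1 did not overlap between the genotypes. They are themselves near the highest signals, so lower levels of these transcripts and a lower top of the array scale cannot be told apart. Tat, Cps1 and Hnf4a overlapped. At day 0 the sum was higher in KO, with 306517.1 to 365292.3 units against 264967.4 to 265380.9. Summed Kupffer cell and macrophage markers ran from 10344.1 to 14251.9 in KO and 13126.7 to 14458.1 in WT, with 1 of 9 called lower. Endothelial markers summed to 9421.9 to 11244.0 in KO and 8259.5 to 9280.0 in WT (1 of 7 called higher), and neutrophil markers to 1920.0 to 2311.1 and 2072.8 to 2302.9 (0 of 4 called). Stellate cell markers summed to 8442.8 to 9554.8 in KO and 7717.3 to 8456.7 in WT (0 of 6 called), and 0 of 5 lymphocyte, 0 of 2 cholangiocyte and 0 of 2 erythroid markers were called by limma. Of all genes, 3.99% were called higher and 5.23% lower in KO at day 2. No marker was at 0 on any array, but many were dim. Mean day 2 signals lay below the array median for 4 of 6 neutrophil markers in KO and 3 in WT, and for 3 and 4 of 6 lymphocyte markers. The same held for 3 of 5 cholangiocyte and 2 of 3 erythroid markers in both, which limits what their sums and calls show. The part of these features in the Ier2 and Atf3 differences was not tested.

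Egr1, a zinc finger factor that MAP kinase signalling is known to induce, spanned 3.82 log2 units over the 12 arrays. It had 988.2 and 357.9 units in KO at day 0, 228.4 in the day 1 pool, and 586.7, 416.0 and 464.2 at day 2. WT had 872.9 and 3430.5 at day 0, 264.0 in the day 1 pool, and 635.2, 1266.5 and 615.3 at day 2. Each day 1 pool was the lowest array of its genotype, WT day 0 replicate 2 stood far above all others, and every KO day 2 array lay below every WT day 2 array. Between the genotypes at day 2 the difference was -0.69 ± 0.49 (limma adjusted p 0.373).

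The WT change of Egr1 rested on which day 0 array was used. It was -1.12 ± 0.55 with both (limma adjusted p 0.217), -2.09 without replicate 1 (adjusted p 0.0407, called) and -0.14 without replicate 2 (adjusted p 0.921). KO minus WT at day 0 was -1.51 ± 0.60 (limma adjusted p 0.545), -2.49 without WT replicate 1 and -0.54 without WT replicate 2. In KO, Egr1 differed over time by -0.29 ± 0.55 (adjusted p 0.812), and by 0.42 without KO day 0 replicate 1.

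Klf6, a Krüppel-like factor with roles in injured liver, was read by 5 probe sets that did not move together. The brightest (1418280_at) had 348.5 and 245.4 units in KO at day 0, 290.6 in the day 1 pool, and 402.9, 655.0 and 386.2 at day 2, against 348.0 and 380.6, then 318.5, then 380.6, 401.3 and 383.8 in WT. All KO day 2 arrays were above both KO day 0 arrays, while WT arrays stayed within a narrow band. Its change over time was 0.65 ± 0.28 in KO (unadjusted p 0.0423, limma adjusted p 0.2) and 0.09 ± 0.28 in WT (adjusted p 0.871). A dimmer probe set (1433508_at) gave 0.10 ± 0.43 in KO and 1.22 ± 0.43 in WT (limma adjusted p 0.932 and 0.0896 over all probe sets), the opposite order, and another (1427742_a_at) 1.01 ± 0.56 in KO and 0.54 ± 0.56 in WT. The remaining 2 (1459718_x_at and 1447448_s_at) ran from 19.3 to 164.2 and from 8.7 to 119.2 units and did not pass the filter. No direction over time or between genotypes is given for Klf6.

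Ier3 and Dusp1 stand downstream of growth and stress signals, Ier3 as a survival regulator and Dusp1 as a brake on p38, JNK and ERK kinases. Ier3 had 150.7 and 109.7 units in KO at day 0, 249.0 in the day 1 pool, and 238.6, 274.7 and 386.1 at day 2. WT had 77.3 and 173.4 at day 0, 261.8 in the day 1 pool, and 93.3, 246.0 and 197.4 at day 2. All KO arrays after TCPOBOP were above both KO day 0 arrays, and WT arrays of days 0 and 2 overlapped. The change was 1.10 ± 0.51 in KO (limma adjusted p 0.232) and 0.46 ± 0.51 in WT (adjusted p 0.614), and KO minus WT at day 2 was 0.76 ± 0.46 (adjusted p 0.296).

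Dusp1 had 425.5 and 461.6 units in KO at day 0, 636.4 in the day 1 pool, and 421.8, 425.2 and 380.2 at day 2. WT had 561.3 and 1237.6 at day 0, 842.2 in the day 1 pool, and 790.6, 473.6 and 377.8 at day 2. Both KO arrays at day 0 lay below both WT arrays, and the day 2 groups overlapped. KO minus WT was -0.89 ± 0.37 at day 0 (unadjusted p 0.0334, limma adjusted p 0.567), and -0.33 without WT replicate 2. At day 2 it was -0.34 ± 0.30 (limma adjusted p 0.479), and the changes over time were -0.11 ± 0.34 in KO (adjusted p 0.895) and -0.66 ± 0.34 in WT (adjusted p 0.234). The WT change was -0.10 with WT day 0 replicate 2 left out and -1.22 with replicate 1 left out.

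The day 1 pools are 1 array a genotype and allow no test, so a 2-fold difference on the log2(signal + 16) scale was used to name genes. At least 2-fold from the day 0 mean in KO were 3 of 9 members, Atf3 (2.06) and Jun (1.41) higher and Egr1 (-1.33) lower, against 6.11% of all genes higher and 6.74% lower, 12.8% either way. In WT they were Ier3 (1.06) and Jun (1.01) higher and Egr1 (-2.64) lower, against 6.35% and 6.98%, 13.3% either way. These lists depend on the day 0 arrays. In KO, Atf3 was 1.13 without KO day 0 replicate 1 and 2.99 without replicate 2, and Egr1 was -0.61 and -2.04. In WT, Egr1 was -3.62 without WT day 0 replicate 1 and -1.67 without replicate 2, and Jun and Ier3 were 0.76 and 0.55 without replicate 1 and 1.26 and 1.57 without replicate 2. Between the pools 0 members reached 2-fold (KO over WT), against 4.08% of all genes higher and 5.11% lower, 9.18% either way, and the largest differences were Jun (0.48) and Dusp1 (-0.40). For Atf3 the KO pool stood at 415.7 units beside 481.0 in the WT pool, and for Ier2 at 639.7 beside 712.8, differences of -0.20 and -0.15.

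**Figure D4:**
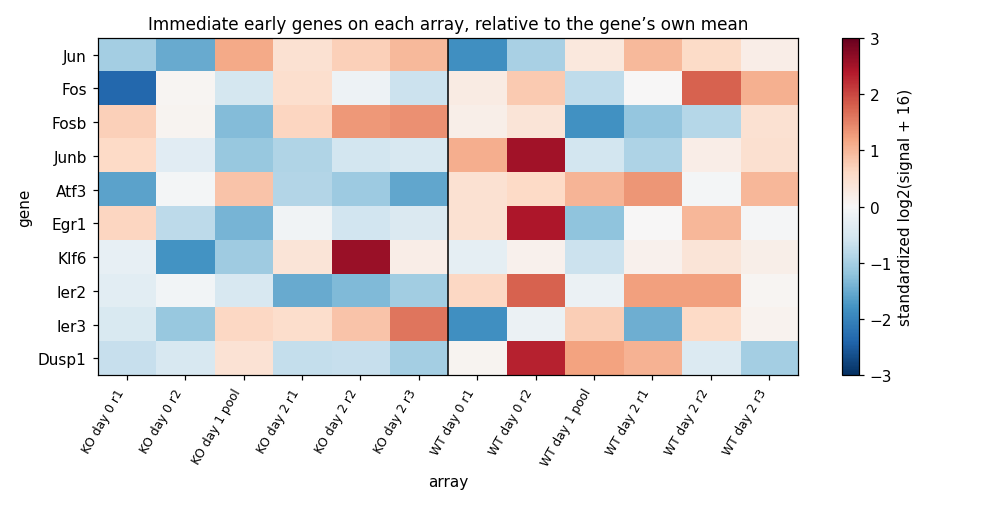
Level of the 10 immediate early genes (rows) on each of the 12 arrays (columns, KO left of the line and WT right of it), as log2(signal + 16) less the gene's mean and divided by its SD over all arrays (colour scale). WT day 0 replicate 2 holds the highest value of Junb, Egr1, Ier2 and Dusp1.

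Among the arrays, WT day 0 replicate 2 held the highest value of 4 of the 10 genes, Junb, Egr1, Ier2 and Dusp1, and KO day 2 replicate 3 that of Fosb and Ier3. WT day 0 replicate 2 also had the highest ratio of 3′ to 5′ signal for Actb, a sign of RNA or labelling quality, with 2.11 against 1.53 to 1.97 on the other arrays. For Gapdh the highest ratio was on KO day 0 replicate 1 (0.919), with 0.872 on WT day 0 replicate 2 and 0.734 to 0.83 on the other arrays. The part of these ratios in the levels was not tested. Replicates spread widely for Egr1, Atf3 and Junb, with within-group SDs of 0.79, 0.78 and 0.68 log2 units, more than in 92.7%, 92.4% and 88.8% of all genes tested. The median gene had 0.26. Ier3 (0.53), Dusp1 (0.45) and Fos (0.41) also lay above that median, whereas Ier2 and Klf6 (0.28 each), Jun (0.23) and Fosb (0.20) were close to it or below.

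As a measure of likeness, profiles over the 12 arrays were set to mean 0 and SD 1 and their mean absolute difference taken, so that a lower value is more alike; the median of all genes tested against the members' mean profile was 1.15. Jun and Ier3 were the closest pair (0.51), followed by Atf3 and Dusp1 (0.64), and Fosb and Dusp1 were the furthest apart (1.56). The median of 1.15 is for genes against the mean profile and gives no measure for pairs. The 5 other genes closest to the members' mean profile were Guca1b (0.35), Cyp26a1 (0.42), Anxa2 (0.44), Tes (0.49) and Fn3k (0.49). The members themselves lay from 0.70 (Fos) to 1.30 (Fosb) from it, and Fosb alone was further than the median gene at 1.15. The 5 genes were picked for their closeness, and the members help to make the mean profile, so these distances are no test of a shared pattern. Cyp26a1, which breaks down retinoic acid, had 954.3 and 731.8 units in KO at day 0, against 1541.4 and 6602.1 in WT. The mean profile itself was lowest on the KO day 0 arrays (-1.50 and -1.61) and highest on WT day 0 replicate 2 (2.04).

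Among 15 tested partners and relatives of AP-1, other Jun, Fos and ATF proteins and small Maf proteins among them, 1 was called higher over time in KO (Jdp2, a repressor that pairs with c-Jun, 1.49 ± 0.38) and 0 in WT. Of all genes tested, 8.69% were called over time in KO and 12.6% in WT. Between the genotypes at day 2, 1 was called higher in KO (Mafg, 0.65 ± 0.15), against 3.99% of all genes higher and 5.23% lower. Each of these calls was lost without some single arrays, and by the mean of the gene's probe sets the values were 0.51 for Jdp2 (adjusted p 0.525) and 0.52 for Mafg (adjusted p 0.0817). The median change of the list was 0.21 in KO and -0.07 in WT, beside 0.05 and -0.11 over all genes.

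Of 47 other primary response genes, those also switched on without new protein, 3 rose and 6 fell over time in KO, and 8 rose and 2 fell in WT. Over all genes 4.2% were called higher and 4.49% lower in KO, and 7.26% and 5.38% in WT. Medians were 0.06 in KO and -0.09 in WT. Without 1 array the number called ran from 6 to 9 in KO and from 5 to 10 in WT, fewest without WT day 0 replicate 1. Gadd45b, a stress sensor that CAR is known to induce, had a larger fitted change than any member in both genotypes, with 237.4 and 288.2 units in KO at day 0 and 1960.3, 2702.6 and 2437.1 at day 2. Its change was 3.09 ± 0.30 in KO (limma adjusted p 7.29e-05) and 2.86 ± 0.30 in WT (adjusted p 9.36e-05). Plk3, a stress kinase, had 531.4, 567.6 and 873.5 units in WT at day 2, against 22.2 and 75.5 at day 0 (3.48 ± 0.36, adjusted p 8.67e-05). In KO it already had 447.8 and 277.4 units at day 0, higher than in WT (2.64 ± 0.40, adjusted p 0.033, a call lost under several alternatives), and 584.1, 626.2 and 641.6 at day 2. For the KO change minus the WT change 4 of the 47 were called, Zfp36 above 0 (1.11 ± 0.20) and Plk3 (-2.70 ± 0.51), Btg1 (-1.33 ± 0.23) and Rhob (-0.93 ± 0.21) below, and 0 were called without WT day 0 replicate 1. That difference was called for 3.15% of all genes. Between the genotypes at day 2, 3 of the 47 were called, all lower in KO, against 5.23% of all genes called lower. They were the growth brake Btg1 (-0.80 ± 0.14), the small GTPase gene Rhob (-0.62 ± 0.13) and Gadd45g (-2.40 ± 0.52). Gadd45g had only 23.0, 39.6 and 23.3 units on the KO day 2 arrays, where the pseudocount sets much of the value. Its difference ran from -2.91 to -1.61 over the alternatives other than leaving out single arrays. The Rhob and Gadd45g calls were lost without some single arrays, and that of Btg1 by the mean of its probe sets (-0.56, adjusted p 0.146).

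Upstream of the members, 24 genes of MAP kinase and serum response factor signalling were tested. Calls over time stand against 8.69% of all genes in KO and 12.6% in WT. Map2k2, the ERK kinase MEK2, was called higher over time in KO (0.77 ± 0.14) and in WT (1.04 ± 0.14), and Met, the receptor for hepatocyte growth factor, was called lower in KO (-0.91 ± 0.18), a call lost without KO day 0 replicate 2. The KO call of Map2k2 was lost by the mean of its probe sets (0.67, adjusted p 0.0824). At day 2 limma called 0 of the 24 between the genotypes, and without 1 array 0 to 2, against 9.22% of all genes with all arrays.

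Among 17 tested negative feedback genes of MAP kinase signalling, 2 rose and 1 fell over time in KO and 2 fell in WT, against 8.69% of all genes called in KO and 12.6% in WT. Dusp6, a phosphatase of ERK, had 2016.4, 1955.0 and 2226.5 units in KO at day 2, against 1092.6 and 607.1 at day 0 (1.32 ± 0.20, limma adjusted p 0.00187). Dusp3 rose in KO too (1.06 ± 0.16, adjusted p 0.00164), while Errfi1, an inhibitor of the EGF receptor, was called lower (-1.54 ± 0.32), a call lost without KO day 0 replicate 1. In WT, Spry4, an inhibitor of receptor signalling, fell 1.98-fold (-0.99 ± 0.17, adjusted p 0.00271), and Spred1 was called lower by 0.48 (-0.48 ± 0.13), a call lost without most single arrays. KO minus WT at day 2 was 0.74 ± 0.18 for Dusp6 (adjusted p 0.0283), and this call was lost without any 1 of the 6 day 2 arrays. The KO change minus the WT change was called for 2 of the 17, against 3.15% of all genes. They were Dusp6 (1.42 ± 0.29, adjusted p 0.0282) and Spry4 (1.31 ± 0.24, adjusted p 0.0208). Neither call was kept without KO day 2 replicate 2. That of Dusp6 was lost without most other single arrays too, and with arrays centred on their medians (1.23, adjusted p 0.0568). That of Spry4 was also lost without either WT day 0 array.

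Of 11 heat shock genes, which respond to handling and protein stress as the members also can, 5 rose and 0 fell over time in KO, and 3 rose and 0 fell in WT, against 4.2% of all genes called higher in KO and 7.26% in WT. Hspa1b rose 6.2-fold in KO (2.63 ± 0.30, limma adjusted p 0.000258). In WT it had 498.9 and 726.9 units at day 0, 4846.0 in the day 1 pool, and 525.1, 534.1 and 980.7 at day 2. Hsp90aa1 rose in both, by 0.84 ± 0.15 in KO (adjusted p 0.00552) and 1.51 ± 0.15 in WT (adjusted p 7.66e-05). The count in KO was 2 without KO day 0 replicate 2. Between the genotypes at day 2, 3 were called higher in KO (Hspa1b, Hspa1a and Hsph1) and 1 lower (Hspe1), against 3.99% and 5.23% of all genes. Without 1 array 2 to 3 were called in all. The Hspe1 call was lost with quantile normalization (-0.25, adjusted p 0.0934), the Hspa1a call without KO day 2 replicate 2 (3.10, adjusted p 0.0545), and the Hsph1 call under several alternatives, such as the mean of its probe sets (0.56, adjusted p 0.177). For the KO change minus the WT change 2 of the 11 were called, against 3.15% of all genes. They were Hspa1b above 0 (2.52 ± 0.43) and Hspe1 below (-1.0 ± 0.15). Both calls were lost with a plainer limma fit, without trend and not robust (adjusted p 0.0695 and 0.055). That of Hspa1b was also lost by the mean of its probe sets (1.87, adjusted p 0.0625), and its value was 2.26 without WT day 0 replicate 2.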

How the data were processed

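RNA of 12 mouse livers or pools was measured on single-colour Affymetrix arrays. The deposited intensities were computed with MAS5 (version not given) by the authors, as the submitters' processing notes name that tool; the mean between the 2nd and 98th percentile is 499.9 to 500.1 units on every array. They were used without another normalization, as log2 of the value plus 16. Probe sets were joined to genes by the platform annotation, with old symbols updated through gene IDs (34741 of 34945 matched in the RefSeq GRCm38.p6 table). Each gene was represented by whichever kept probe set was brightest by mean log2 value, which gave 14102 genes of 18193. limma 3.58.1 in R 4.3.3 (eBayes with trend and robust, two-sided, Benjamini-Hochberg over all genes) made the tests. All 15 member probe sets are accounted for. Of each further gene list, the up to 4 called genes with the largest change and no overlap between groups qualified for naming, and the text gives only some of these, picked for brevity with their values known. The members and the lists were chosen with earlier results of these data known. Cell type sums use markers from hepatocytes, Kupffer, endothelial, stellate, neutrophil, lymphocyte, cholangiocyte and erythroid cells. The fit was tested on simulated data. Tables were made in Python 3.11.15 (pandas 2.3.3, numpy 2.4.6), figures with matplotlib 3.10.9.

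Alternatives were quantile, cyclic loess or median centring between arrays, a pseudocount of 1 or 64, no filter or a stricter one (above the median on at least 6 arrays), every probe set or the mean of a gene's probe sets, the replicate number as a block, array weights, a fit of only the compared groups, plain eBayes (no trend, not robust), an adjusted p under 0.1, a day 1 threshold of 1.5-fold, and leaving out each array. A day 0 group left with 1 array is taken to have the spread of the other groups. Same-numbered samples did not deviate together, as the closing section gives. Scan dates were not used here. Promoter windows come from RefSeq (GRCm38.p6), and no sequence is given for Egr1 and Ier2.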

Additional observations from a re-analysis of the deposited data

How the results depend on the processing

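The numbers of members called by limma were the same under all scaling, pseudocount, filter, probe set and test alternatives. With every probe set tested, each gene was still counted by its brightest probe set, so that this alternative says little about the choice of probe set. The dimmer Jun probe set was not called over time in KO (1.59, limma adjusted p 0.0786). Counts differed when single arrays were left out. Without 1 array, 1 to 2 members were called over time in WT (2 without WT day 0 replicate 1, Egr1 beside Jun) and 1 to 2 between KO and WT at day 2, Atf3 being lost without 5 of the 6 arrays and Ier2 kept throughout. At day 1 in WT, 1 member passed 2-fold with a pseudocount of 64 and 6 passed 1.5-fold. Centring arrays on their medians shifts every gene by -0.17 in KO minus WT at day 2, by 0.12 over time in WT and by -0.19 in the difference between the changes. Signs turned only for values that were not called. Jun in KO minus WT at day 2 was -0.10 with centring and -0.45 by the mean of the probe sets, and Klf6 was -0.30 by the mean of the probe sets. For the change in KO minus that in WT, Jun was 0.00 with a pseudocount of 64 and Klf6 -0.03 by the mean of the probe sets. Over single arrays left out, the change in KO ran from -0.07 to 0.99 for Fos, from -1.01 to 0.42 for Egr1 and from -1.34 to 0.52 for Atf3. The change in WT ran from -0.50 to 0.11 for Ier2, from -0.05 to 0.97 for Ier3 and from -0.08 to 0.76 for Atf3. KO minus WT ran from -0.03 to 0.19 for Jun at day 2, and at day 0 from -0.07 to 0.15 for Fosb, from -0.17 to 0.33 for Jun and from -0.39 to 0.63 for Ier3. The difference between the changes ran from -0.25 to 0.80 for Fos, from -0.25 to 0.25 for Jun, from -0.16 to 1.80 for Egr1, from -1.61 to 0.25 for Atf3 and from -0.01 to 1.11 for Dusp1. The causes of these shifts were not tested. Same-numbered replicates are different samples of other groups, and the correlations of their deviations from the group means ran from -0.02 to 0.03. With the replicate number as a block, 1 member was called in KO and 1 in WT over time, 2 between the genotypes at day 2, 0 at day 0 and 0 for the difference, as without it, and Dusp1 in KO turned to 0.02. Signals under 64 units, as in Atf3 and Junb, limit what can be said of their size.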
